A study of Mus musculus with 6 samples.

Results

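The genes described here are 48 collagens and other core genes of the extracellular matrix, chosen by symbol. All 48 were found in each of the 6 count tables, among 19349 genes in all. By role they comprise 6 fibrillar collagens, 13 basement membrane genes, 7 other collagens, 3 adhesive glycoproteins, 9 genes of elastic fibres and crosslinking, 4 proteoglycans and 6 matricellular genes. Non-parenchymal liver cells, the liver cells other than hepatocytes, were profiled cell by cell on the 10x Genomics droplet system in mice with non-alcoholic steatohepatitis (NASH). The mice were male C57BL/6J animals, obtained as young adults, in which a prolonged high-fat diet was given to all of the animals used here. Over the last weeks of that diet they received by the intragastric route either the vehicle DMSO (vehicle group, 3 libraries) or ginkgetin, a plant biflavone, at 10 mg/kg/day (ginkgetin group, 3 libraries). No chow-fed library is analysed here, so levels in steatohepatitis cannot be set against healthy liver. The sources used here do not tie libraries to single animals. The p-values concern the spread between these libraries, which the fits estimate in part over all genes together.

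The matrix is the scaffold around and beneath cells. Fibrillar collagens (Col1a1, Col1a2, Col3a1 and Col5a1 to Col5a3) are secreted as procollagen chains that are hydroxylated, assembled into triple helices, trimmed outside the cell and crosslinked by lysyl oxidases. The basement membrane is a sheet of collagen IV (Col4a1, Col4a2), laminins (Lama, Lamb and Lamc genes), nidogens and perlecan (Hspg2). In the liver, quiescent stellate cells lie between sinusoidal endothelium and hepatocytes, and their activation into collagen-making myofibroblast-like cells is the textbook route to scarring. Liver sinusoids lack a continuous basement membrane, which bile ducts and larger vessels have.

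The 6 libraries held 33168 barcodes and from 13128697 to 61796880 unique transcripts (UMIs) each. After a filter of 250 to 5000 detected genes and under 5% mitochondrial UMIs, 27544 cells remained. Replicate 3 of both groups used a different set of barcodes and of gene symbols than replicates 1 and 2, and the libraries separated by that set. Libraries shared up to 85 cell barcodes with one another. Cells were clustered without the 48 genes and named only from markers outside them. Stellate-like cells (181 cells) expressed 14 stellate markers summing to between 13708 and 23230 counts per 1000000 UMIs of the class sum (CPM) in each library. Vehicle replicate 1 held 6 stellate-like cells and was left out of their sums, because libraries with fewer than 10 cells of a class were not used. In all, 874 cells stayed unnamed. In sums of this kind, fewer cells of a subtype and less RNA per cell cannot be told apart.

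Promoter sequences are printed for genes on which the later comparisons turn, so that 2 collagens whose groups did not overlap in stellate-like cells can be read beside 3 genes called higher in macrophage-like cells. Each is the stretch of 250 bases before the transcription start, 5′ to 3′ on the gene's own strand, from RefSeq on GRCm38.p6. Capitals mark CCAAT (or ATTGG on the other strand), TATAAA (or TTTATA) and GGGCGG (or CCGCCC).
Col1a2, chr6:4505368-4505617, plus strand: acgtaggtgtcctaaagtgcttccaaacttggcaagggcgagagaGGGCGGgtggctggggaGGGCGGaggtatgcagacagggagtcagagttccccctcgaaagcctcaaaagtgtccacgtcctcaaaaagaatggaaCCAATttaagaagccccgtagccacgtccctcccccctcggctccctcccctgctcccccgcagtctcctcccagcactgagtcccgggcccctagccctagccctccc
Col3a1, chr1:45311288-45311537, plus strand: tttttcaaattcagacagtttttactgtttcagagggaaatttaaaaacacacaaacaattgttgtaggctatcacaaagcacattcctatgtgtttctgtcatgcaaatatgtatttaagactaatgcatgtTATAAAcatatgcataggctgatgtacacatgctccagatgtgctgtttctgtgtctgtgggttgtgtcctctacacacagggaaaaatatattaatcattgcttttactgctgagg
Hspg2, chr4:137468553-137468802, plus strand: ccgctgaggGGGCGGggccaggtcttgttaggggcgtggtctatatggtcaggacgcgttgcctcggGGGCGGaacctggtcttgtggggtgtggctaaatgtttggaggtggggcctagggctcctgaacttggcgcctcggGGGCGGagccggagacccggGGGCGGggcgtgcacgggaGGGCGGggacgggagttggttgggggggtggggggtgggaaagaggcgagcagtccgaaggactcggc
Nid1, chr13:13437352-13437601, plus strand: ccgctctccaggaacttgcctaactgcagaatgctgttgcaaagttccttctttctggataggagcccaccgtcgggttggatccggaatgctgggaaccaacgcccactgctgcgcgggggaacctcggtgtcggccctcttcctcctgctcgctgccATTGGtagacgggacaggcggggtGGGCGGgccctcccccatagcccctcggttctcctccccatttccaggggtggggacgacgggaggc
Sparc, chr11:55420081-55420330, minus strand: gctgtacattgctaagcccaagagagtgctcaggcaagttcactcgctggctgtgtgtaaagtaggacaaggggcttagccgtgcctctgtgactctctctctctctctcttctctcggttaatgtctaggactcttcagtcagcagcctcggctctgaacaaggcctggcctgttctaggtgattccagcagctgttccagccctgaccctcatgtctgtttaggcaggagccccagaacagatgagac
Col1a2 held CCAAT 109 bases before its start, Col3a1 held TATAAA 117 bases before its start, and Hspg2 held 5 copies of GGGCGG. Sparc held none of these letters in this window. A window was found for 31 of the 48 genes, Col1a1 not among them. CCAAT was found in 11 of those 31 against 33.8% of all 32851 promoters, TATAAA in 6 against 12.4%, and GGGCGG in 23 against 32.7%. Col4a1 and Col4a2 lie on opposite strands of chromosome 8, and their annotated starts are 21 bases apart, so that the first bases of the transcripts overlap. A CCAAT lies before the start of Col4a2 and, by this annotation, inside the beginning of Col4a1.
Col4a1 and Col4a2, chr8:11312761-11312789, plus strand: ccgaggagctccCCAATttgttggcgctg

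**Figure D1:**
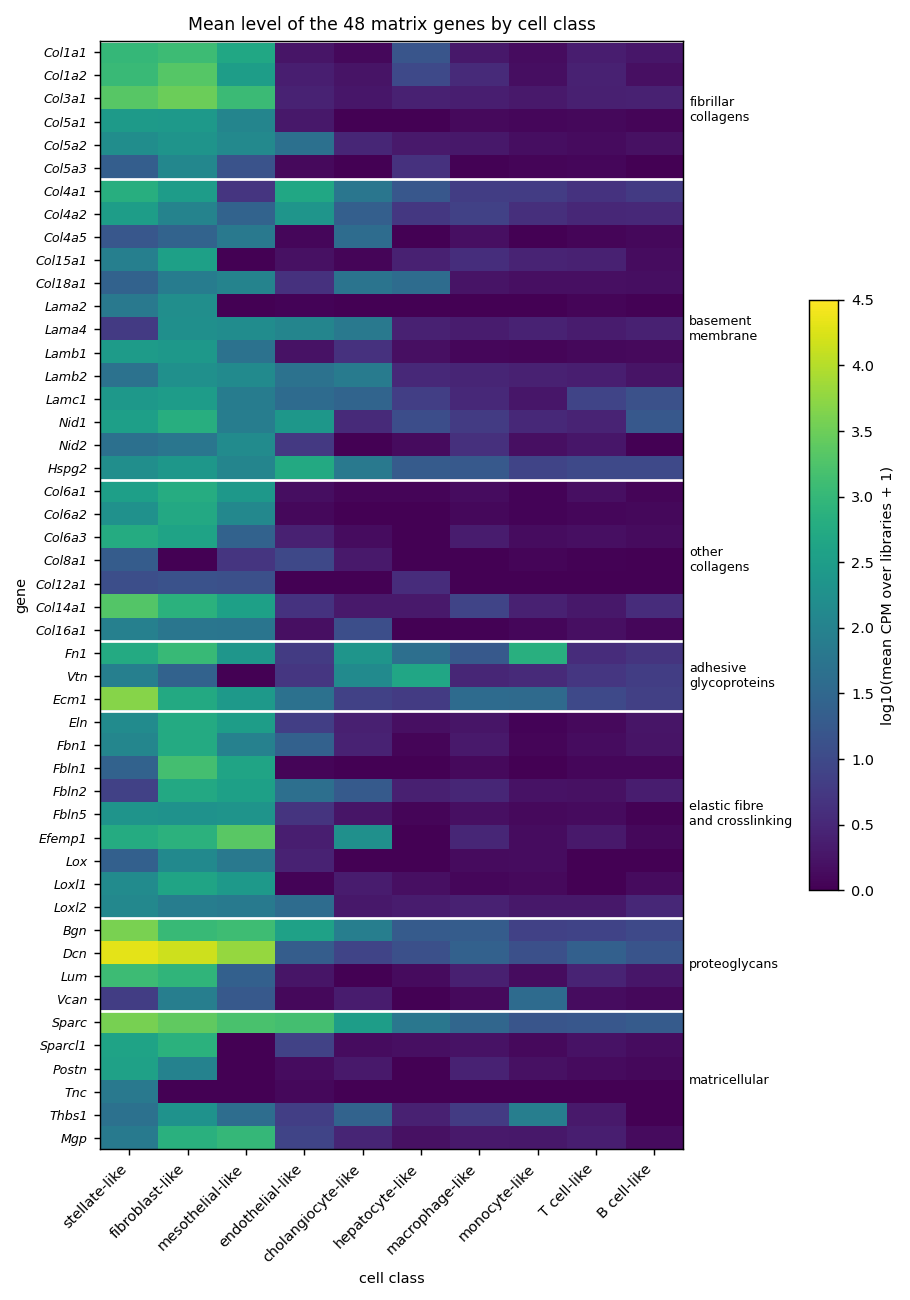
Mean level of each of the 48 genes (rows, grouped by role) in each class of cells (columns), as the colour-coded log10 of 1 plus the CPM averaged over the libraries with enough cells. Of the 48 genes, 46 were highest in a mesenchymal class (fibroblast-like, stellate-like or mesothelial-like), with Hspg2 highest in endothelial-like and Vtn in hepatocyte-like cells.

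The first question was which cells carried the transcripts. Ranked by mean CPM over libraries, 24 genes were highest in fibroblast-like cells, 16 in stellate-like cells and 6 in mesothelial-like cells. Of the 6 fibrillar collagens, 5 were highest in fibroblast-like cells, and Col5a1, which nucleates fibrils, was highest in stellate-like cells at 283 CPM. Hspg2, the heparan sulphate proteoglycan perlecan, was the one gene highest in endothelial-like cells (547 CPM), and Vtn, the plasma adhesion protein vitronectin made by hepatocytes, was the one highest in hepatocyte-like cells (463 CPM). These ranks are descriptions, because classes differ in cell number and only 1 library per group held 10 or more fibroblast-like cells. Summed over the 6 fibrillar collagens, vehicle replicate 2 was at 5786 CPM in stellate-like and 4169 CPM in fibroblast-like cells. Ginkgetin replicate 3 was at 2757 and 9635 CPM, so the rank depends on the libraries averaged.

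Cells that had the most transcripts were often not those with the highest level, because mesenchymal cells were rare. Endothelial-like cells held the largest number of UMIs for 15 genes, against 21 for stellate-like cells. They held 90.2% of Hspg2, 84.0% of Col4a1, 82.9% of Col4a2, 82.7% of Lama4, 81.2% of Nid1 and 75.9% of Sparc UMIs, the last a collagen-binding matricellular protein. Monocyte-like cells held 69.0% of the UMIs of fibronectin (Fn1), 88.3% of those of versican (Vcan) and 62.2% of those of thrombospondin 1 (Thbs1). Cholangiocyte-like cells held 69.0% of Col4a5 and 42.2% of Col18a1 UMIs. Stellate-like cells, by contrast, held 89.2% of Tnc, 84.5% of Postn, 76.9% of Lum, 74.9% of Col14a1 and 66.9% of Col1a1 UMIs. Unnamed cells held 40.9% of the UMIs of Mgp, a calcification inhibitor of vessels and cartilage.

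The second question was whether levels differed between ginkgetin and vehicle in stellate-like cells, the cells of scar collagen. The genes of type I collagen were lower in all 3 ginkgetin libraries than in both vehicle libraries, with group means of 266 CPM (ginkgetin) and 2062 CPM (vehicle) for Col1a1, while the abundant proteoglycan decorin (Dcn) overlapped between the groups. The level of Col1a1, the alpha-1 chain of type I collagen, was 1246 and 2879 CPM in vehicle replicates 2 and 3, and 321, 199 and 279 CPM in ginkgetin replicates 1, 2 and 3. The lowest vehicle library was thus above the highest ginkgetin library. The log2 fold change was -3.03 (SE 0.48). In edgeR's quasi-likelihood test on the group alone the Benjamini-Hochberg adjusted p was 0.264, whereas with the replicate number as a block it was 2.58e-05 (log2 fold change -3.07). That block leaves 1 residual degree of freedom, since ginkgetin replicate 1 has no vehicle partner among these sums. Its p-values in these sums therefore rest on a spread pooled over genes, not on each gene's own.

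The other fibrillar collagens lay on the same side. Col1a2, the alpha-2 chain of type I collagen, was at 1276 and 2710 CPM in vehicle and at 566, 440 and 680 CPM in ginkgetin libraries, with no overlap (log2 fold change -1.89 with an SE of 0.45, and an adjusted p of 0.408 from edgeR, with the block 0.0373). Col3a1, the chain of type III collagen, was at 2743 and 4253 CPM against 1622, 816 and 1280 CPM, again without overlap (log2 fold change -1.57 with an SE of 0.44, and an adjusted p of 0.546 from edgeR, with the block 0.0899). It was called by DESeq2 (adjusted p 0.015) and with a block for the barcode set (0.0255). Col5a2 was at 174 and 378 CPM against 94.3, 69.8 and 92.1 CPM (log2 fold change -1.78 with an SE of 0.43, and an adjusted p of 0.408 from edgeR, with the block 0.00403). Col5a1 overlapped, at 317 and 329 CPM against 189, 181 and 397 CPM. All 5 fibrillar collagens tested had a log2 fold change below 0, with a median of -1.78 against 0.01 over all 5157 genes tested. Summed over the 6 genes, fibrillar collagen transcripts were at 5786 and 10593 CPM in vehicle and at 2792, 1709 and 2757 CPM in ginkgetin libraries.

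Of the 48 genes, 40 passed the filter on low counts in stellate-like cells. None was called at an adjusted p below 0.05 and a fold above 2 in the fit on group alone, where 0.0194% of all genes tested were called, and 10 were above 0 and 30 below. At an unadjusted p below 0.05 edgeR's test had 15 of the 40, and 6.83% of all genes. With the replicate block 9 were called, 8 of them lower (Col15a1, Col1a1, Thbs1, Tnc, Col5a2, Lox, Vtn and Col1a2) and 1 higher (Mgp), against 3.39% of all genes in both directions, 1.84% lower and 1.55% higher. DESeq2 called 4 (0.504% of all genes), and 2 were called without vehicle replicate 2 (0.142% of all genes), which leaves a lone vehicle library. Of the 40, 14 were lower in every ginkgetin library than in both vehicle libraries and 2 were higher, where 11.8% and 12.5% of all genes tested were so placed. The filter asked for 34.9 CPM in 2 libraries, which Col15a1, Lox, Thbs1, Tnc and Lama2 reached in the vehicle group only and Mgp and Nid2 in the ginkgetin group only, so the counts are descriptive. The 8 that did not pass were Col4a5, Col5a3, Col8a1, Col12a1, Lama4, Fbln1, Fbln2 and Vcan, each at or below 83.4 CPM in every library.

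**Figure D2:**
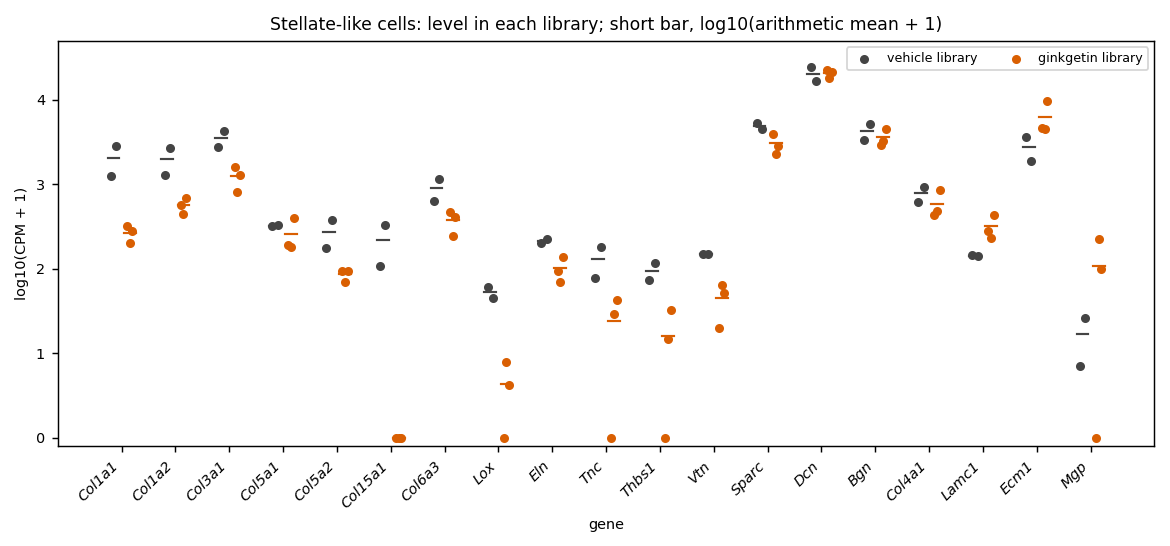
Level of named genes in stellate-like cells, as log10(CPM + 1), with 1 point per library (2 vehicle, 3 ginkgetin) and a short bar at the logarithm of each group's arithmetic mean. Col1a1, Col1a2, Col3a1 and Col5a2 did not overlap between the groups, whereas Dcn did (16726 to 24174 CPM in vehicle against 17928 to 22277 CPM in ginkgetin libraries).

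Basement membrane genes did not share a direction in stellate-like cells, with 5 of the 11 tested above 0 and 6 below. Col15a1, which links basement membranes to fibrils, stood apart, at 108 and 331 CPM in vehicle libraries and with 0 UMIs in all 3 ginkgetin libraries. Against a floor of 3 counts over the ginkgetin group it was at least 47.9-fold lower, and at least 23.5-fold lower without vehicle replicate 3 (edgeR adjusted p 0.264, with the block 2.63e-17). Lamc1, the gamma-1 chain shared by most laminins, was in the opposite order, at 144 and 141 CPM in vehicle and at 283, 234 and 438 CPM in ginkgetin libraries (log2 fold change 1.10 with an SE of 0.43, and an adjusted p of 0.705 from edgeR). The groups overlapped for both main collagen IV chains. Col4a1 was at 623 and 936 CPM against 434, 488 and 854 CPM, and Col4a2 at 353 and 480 CPM against 189, 223 and 362 CPM.

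Genes that crosslink or build elastic fibres were mostly below 0, with 6 of the 7 tested below 0 and a median log2 fold change of -0.99. Lox, the lysyl oxidase that starts the crosslinking of collagen and elastin, was at 59.9 and 44.0 CPM in vehicle and at 0, 6.98 and 3.18 CPM in ginkgetin libraries (log2 fold change -3.43 with an SE of 0.89, and an adjusted p of 0.465 from edgeR, with the block 0.0141). The groups did not overlap, but the ginkgetin values rest on few UMIs. Eln, elastin itself, was at 204 and 225 CPM against 94.3, 69.8 and 137 CPM, and Loxl2, a related oxidase, at 210 and 151 CPM against 75.5, 94.2 and 102 CPM. Both missed the threshold in both fits.

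Among the adhesive and matricellular genes the order varied. Vtn was at 150 and 148 CPM in vehicle and at 18.9, 62.8 and 50.8 CPM in ginkgetin libraries (edgeR adjusted p 0.473, with the block 0.035). Ecm1, a secreted glycoprotein that binds matrix and restrains latent TGF-beta, was at 3612 and 1910 CPM in vehicle and higher in each ginkgetin library, at 4584, 4514 and 9706 CPM (log2 fold change 1.11 with an SE of 0.54, and an adjusted p of 0.771 from edgeR). Fn1 was level, at 533 and 617 CPM against 490, 447 and 769 CPM. Tnc, tenascin C of wound matrix, was at 77.9 and 178 CPM against 0, 27.9 and 41.3 CPM, and Thbs1 at 71.9 and 116 CPM against 0, 14.0 and 31.8 CPM. Neither was called in the fit on group alone. With the block the adjusted p was 0.00363 and 0.00159, and without the filter on low counts it was 0.0074 and 0.0204. In ginkgetin replicate 1, where Lox, Tnc and Thbs1 had 0 UMIs, 3 counts were worth 56.6 CPM, against 6.95 to 18.0 CPM in the other stellate-like sums. Sparc, at 5325 and 4517 CPM against 3999, 2271 and 2878 CPM, did not overlap but missed the threshold (log2 fold change -0.76, SE 0.41). Mgp was the 1 gene called higher with the block, although its libraries overlapped, at 5.99 and 25.5 CPM against 0, 223 and 98.5 CPM. Without the cell filter its log2 fold change was -1.35, in place of 2.69.

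The proteoglycans that coat collagen fibrils did not separate the groups. Dcn was at 24174 and 16726 CPM in vehicle and at 22277, 17928 and 21401 CPM in ginkgetin libraries, a log2 fold change of -0.06 (SE 0.43). Bgn, biglycan, was at 3372 and 5231 CPM against 2924, 3290 and 4558 CPM. The 48 genes together, whose sum Dcn dominates, overlapped as well, at 51032 and 52520 CPM in vehicle and 44025, 36863 and 53486 CPM in ginkgetin libraries.

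Transcripts of other cells moved with the groups in the stellate-like sums. Macrophage markers (12 genes) summed to 288 and 301 CPM in vehicle and to between 56.6 and 143 CPM in ginkgetin libraries, and 5 of the 12 were lower without overlap. Hepatocyte markers (8 genes) summed to 467 and 510 CPM against 47.6 to 345 CPM, and endothelial markers (12 genes) to 168 and 331 CPM against 264 to 1102 CPM. T cell markers (8 genes) summed to at most 38.4 CPM in any library, with Cd4 and Cd8b1 at 0. The stellate markers themselves (14 genes) summed to 18796 and 13708 CPM in vehicle and to 19221, 19323 and 23230 CPM in ginkgetin libraries, without overlap, and 5 of the 14 were higher. Hepatocytes also make vitronectin, so the Vtn values stand beside the hepatocyte markers. The part of these transcripts in the differences was not tested.

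The makeup of the stellate-like cells also moved with the groups. Of 51 cells in a sub-cluster with Ccl5 and Jchain among its leading genes, 50 were from ginkgetin libraries, and of 27 cells in another, 26 were from vehicle replicate 3. Against all other cells the latter was led by Lum, Col1a1, Col3a1 and Col1a2, with 1 stellate marker among its 10 leading genes. In it 11 stellate and 7 fibroblast markers were detected. It held 318454 of the 431434 stellate-like UMIs of vehicle replicate 3, and its part in the collagen values was not tested. A pair of sub-clusters held 10 or more cells of both groups, and the libraries compared there share a barcode set. Values in them, chosen after the data were seen, have no replicates and carry an exact 95% Poisson interval for counting error only. All 14 stellate markers were detected in both, and 4 and 5 of them were among the 10 genes that led each sub-cluster against all other cells, with no smooth muscle or hepatocyte marker there. Against other mesenchymal cells, the first had the hepatocyte genes Acaa1b, Bhmt and Rgn among its leading genes, and their part in its values was not tested. In it Col1a1 was at 876 CPM (723 to 1051) in 20 cells of vehicle replicate 2 and at 116 CPM (46.6 to 239) in 14 cells of ginkgetin replicate 2. In the second, with the contractile genes Myh11 and Acta2 among its leading genes by the same measure and 4 smooth muscle markers detected, Col1a1 was at 2239 CPM (1972 to 2533) in 12 cells of vehicle replicate 3 and at 249 CPM (176 to 341) in 20 cells of ginkgetin replicate 3. Each of these is 1 library against 1, so the fold was not tested against that in the sums.

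Col1a2 and Col3a1 followed Col1a1 within both sub-clusters. Col1a2 was at 952 CPM (793 to 1134) against 529 CPM (362 to 747) in the first and at 2151 CPM (1889 to 2439) against 635 CPM (515 to 775) in the second. Col3a1 was at 3146 CPM (2850 to 3464) against 910 CPM (685 to 1184), and at 3266 CPM (2941 to 3617) against 1368 CPM (1189 to 1567). Dcn went opposite ways, at 26720 against 13433 CPM in the first and at 17322 against 19305 CPM in the second. Ecm1 was level in the first (4182 against 4450 CPM) and higher in the ginkgetin library in the second (4284 against 10657 CPM). Of the 34 genes of the list with 10 or more UMIs in the first pair of libraries, the ginkgetin interval lay wholly below that of vehicle for 7 and above it for 2, as it did for 3.36% and 3.65% of all genes with that many UMIs. Of 39 in the second, it lay below for 10 and above for 7, against 5.11% and 3.93% of all genes. Mgp had 0 UMIs in all 4 of these library sums, so its counts came from other stellate-like cells.

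**Figure D3:**
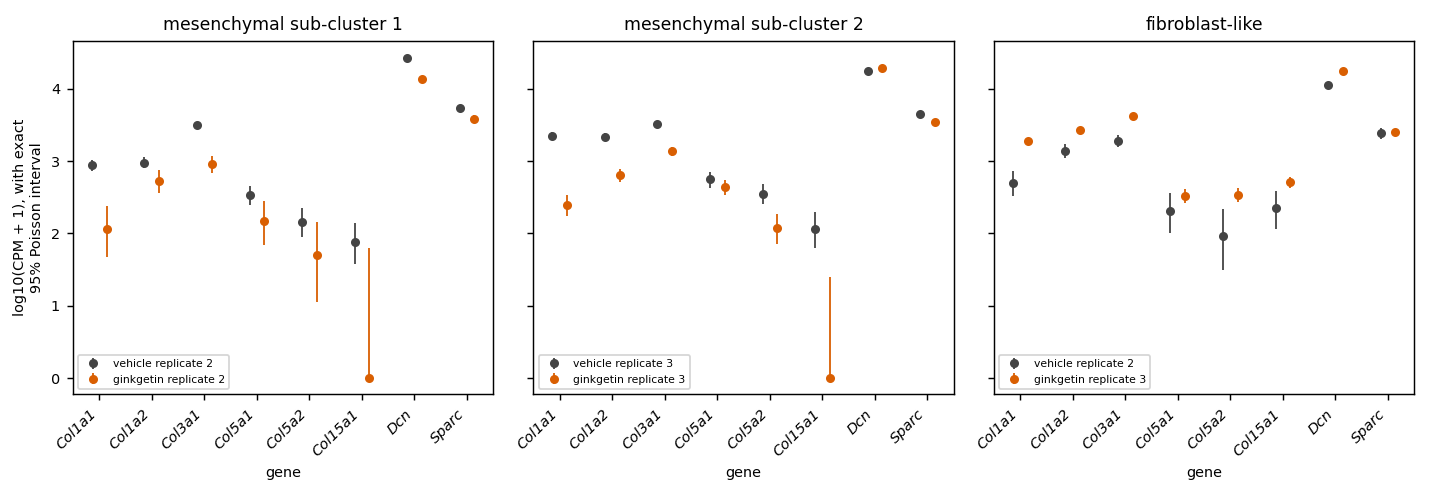
Level, as log10(CPM + 1), of 8 matrix genes within single groups of mesenchymal cells, 1 vehicle and 1 ginkgetin library each, with bars for the exact 95% Poisson interval. Col1a1 was lower in the ginkgetin library in both stellate-like sub-clusters and higher in fibroblast-like cells (496 against 1888 CPM).

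Fibroblast-like cells, in which 5 of the 6 fibrillar collagens had their highest mean over libraries, gave the opposite order in the only libraries with 10 or more of them. Col1a1 was at 496 CPM (327 to 721) in 10 cells of vehicle replicate 2 and at 1888 CPM (1718 to 2071) in 21 cells of ginkgetin replicate 3, and Col3a1 was at 1910 against 4197 CPM. Of the 44 genes of the list with 10 or more UMIs, 21 had a ginkgetin interval wholly above that of vehicle and 1 had it below, against 3.19% and 5.01% of all genes with that many. The order was the same for Fn1 (514 against 1637 CPM), Lamc1 (220 against 403 CPM) and Nid1 (533 against 806 CPM), while Thbs1 was at 239 against 155 CPM. These are 1 library against 1 library of different barcode sets and different sub-clusters, and treatment, barcode set and sub-cluster cannot be told apart. No test was made.

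In endothelial-like cells, which line the sinusoids and vessels, the comparison asked whether basement membrane genes differed with treatment. No gene was called among the 20 tested by edgeR (4 at an unadjusted p below 0.05, and 1 called by DESeq2), where 0.397% of all 10322 genes were called, 14.1% had an unadjusted p below 0.05 and DESeq2 called 2.91%, and their median log2 fold change was -0.30 against -0.01 for all genes. The basement membrane genes overlapped between groups. Hspg2 was at 316, 312 and 690 CPM in vehicle and at 494, 551 and 921 CPM in ginkgetin libraries (log2 fold change 0.44, SE 0.29). Col4a1 was at 375, 378 and 777 CPM against 333, 388 and 569 CPM, and Col4a2 at 216, 212 and 333 CPM against 142, 187 and 243 CPM. Nid1, the laminin-to-collagen IV linker, was at 191, 196 and 367 CPM against 225, 198 and 285 CPM. In both groups replicate 3 was the highest library for each of these genes. The class differed in makeup in this respect. A cluster with Vwf, Adgrg6 and Fbln2 among its leading genes lay inside it for replicate 3, with 9 of 12 endothelial markers detected. It held 400 of the 415 vehicle and 159 of the 1147 ginkgetin cells of that replicate. A cluster of replicates 1 and 2 with these leading genes stayed unnamed, with 4 of the 12 detected. With that unnamed cluster added, none of 26 tested genes was called either (0.689% of all genes), and Hspg2 was at a log2 fold change of 0.47.

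Thbs1, an angiogenesis inhibitor that also activates latent TGF-beta, was the 1 gene of the 20 without overlap, at 6.74, 13.4 and 7.61 CPM in vehicle and at 0.699, 2.29 and 3.86 CPM in ginkgetin libraries. Of all genes, 5.91% were lower in this way, and Thbs1 passed the filter on low counts through the vehicle group only. Markers of other cells were also present in these sums. The 12 macrophage markers summed to 221 to 424 CPM in vehicle and to 62.9 to 185 CPM in ginkgetin libraries, with 7 lower and 2 higher without overlap. Stellate markers summed to 352 to 435 CPM against 170 to 358 CPM, and hepatocyte markers to 206 to 529 CPM against 43.3 to 458 CPM. Their part in the Thbs1 values was not tested. Its log2 fold change was -2.11 (SE 0.55), with an edgeR adjusted p of 0.177 and of 0.033 with the replicate block. With that block 3 genes were called lower, Sparcl1, Col5a2 and Thbs1, against 4.11% of all genes in both directions and 2.85% lower. Col5a2 was at 48.4, 32.7 and 117 CPM against 7.69, 15.5 and 52.0 CPM, overlapping between libraries but lower within each replicate number. Sparcl1, an anti-adhesive relative of Sparc, was at 0.293, 4.47 and 31.6 CPM against 0, 0.889 and 3.74 CPM. Sparc and Lamc1 did not reach a fold of 2. Sparc was at 1421, 1532 and 2031 CPM against 1176, 1116 and 1437 CPM, and Lamc1 at 34.0, 24.6 and 69.4 CPM against 20.3, 26.0 and 42.0 CPM.

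The groups' endothelial-like cells sat largely in different clusters. A cluster with the leading genes Fabp4 and Lyve1 held 1111 cells of vehicle replicate 1 and 474 of vehicle replicate 2 against 10 and 8 of ginkgetin replicates 1 and 2. A cluster led by Ehd3 held 512 and 1846 cells of ginkgetin replicates 1 and 2, and one led by Wnt2 held 699 and 1187. In 1 cluster with Vwf and Esm1 among its leading genes, shared by vehicle replicate 3 (400 cells) and ginkgetin replicate 3 (159 cells), some genes kept the order of the sums and others did not. Sparc was at 2040 against 1103 CPM and Col4a1 at 777 against 500 CPM there. Thbs1 was at 7.79 against 24.5 CPM, Col5a2 at 119 against 215 CPM and Hspg2 at 686 against 448 CPM, each opposite to its order in the summed class. The 4 other clusters with 10 or more cells of both groups at the same replicate number held only 10 to 16 cells of one group, and are not shown. These values are 1 library against 1 and carry no test. Whether the cells of both libraries in the cluster shown are of the same type was not tested.

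In cholangiocyte-like cells, the bile duct lining that lies on a basement membrane, 15 genes were tested by edgeR and none was called (2 at an unadjusted p below 0.05, and 0 called by DESeq2), where 0.176% of all genes were called, 12.9% had an unadjusted p below 0.05 and DESeq2 called 1.12%. Hspg2 was at 17.4, 33.3 and 70.2 CPM in vehicle and at 51.5, 81.7 and 128 CPM in ginkgetin libraries (log2 fold change 1.17 with an SE of 0.48, and an adjusted p of 0.356 from edgeR, with the replicate block 0.00763). It was the 1 gene called with the block, against 2.45% of all genes in both directions and 1.47% higher. Endothelial-like cells held 90.2% of all Hspg2 UMIs. Endothelial markers were not summed in cholangiocyte-like cells, and the part of stray transcripts in the Hspg2 values was not tested. Vtn was at 174, 166 and 185 CPM against 149, 95.3 and 72.1 CPM, without overlap (log2 fold change -0.71, SE 0.30), as were 11.8% of all genes in that direction. Lamc1 was at 17.4, 18.5 and 27.5 CPM against 26.7, 27.2 and 48.5 CPM, and Lamb2 at 39.8, 43.2 and 79.3 CPM against 70.5, 59.7 and 140 CPM. Both overlapped, as did Thbs1 (13.3, 29.6 and 67.1 CPM against 9.53, 11.5 and 27.9 CPM) and Fn1 (183, 162 and 189 CPM against 164, 198 and 429 CPM).

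**Figure D4:**
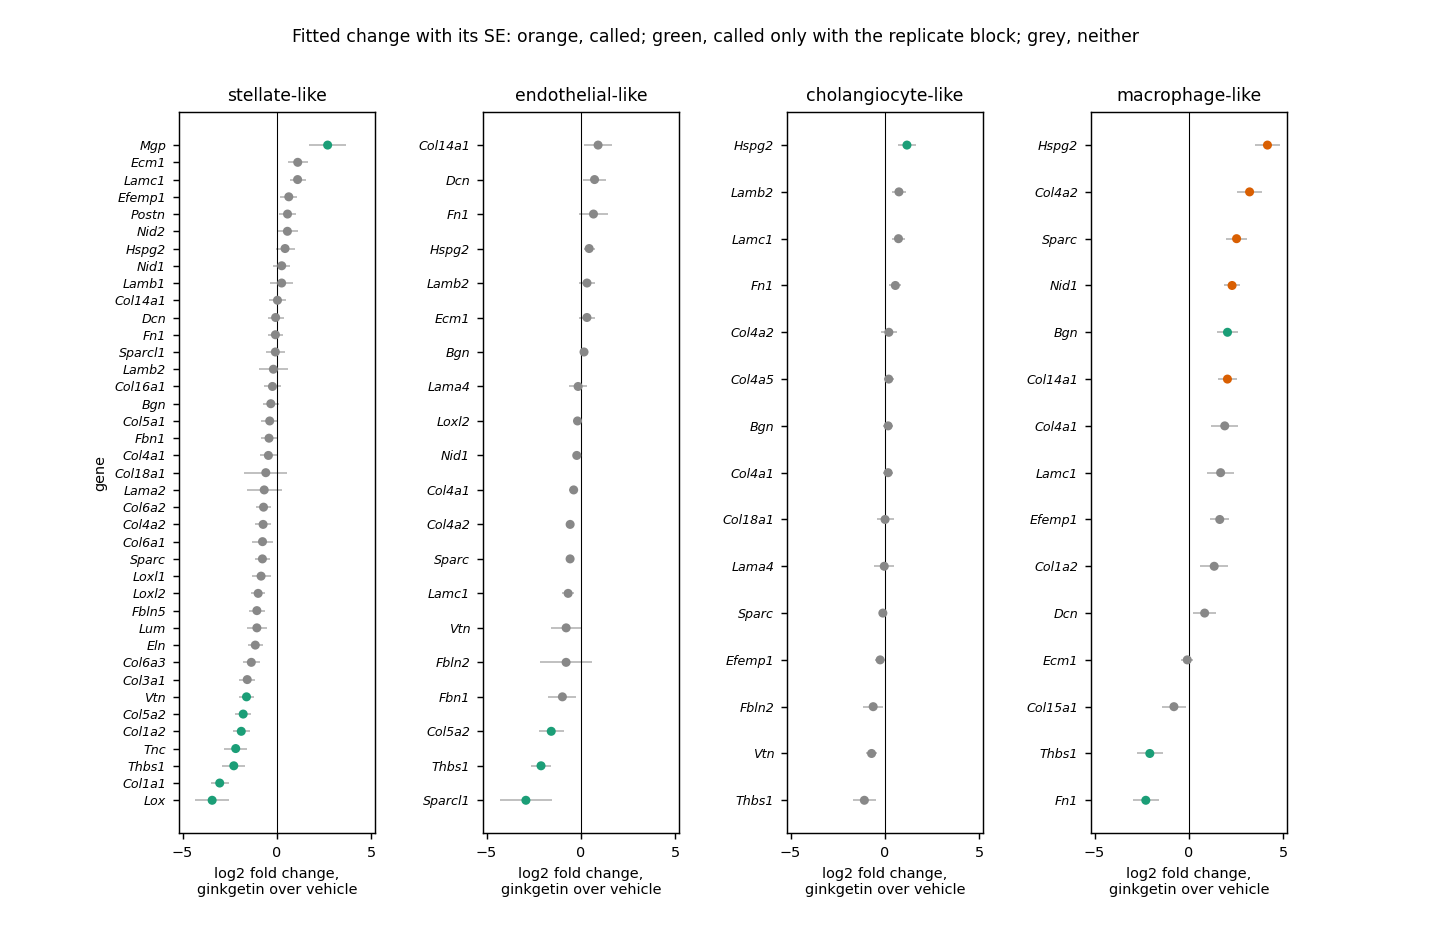
Log2 fold change, ginkgetin over vehicle, of each tested gene in 4 classes of cells, with its standard error as a bar, sorted by size. Orange genes were called in the fit on group alone, green ones only with the replicate block and grey ones in neither, and Col15a1 in stellate-like cells (0 UMIs in all ginkgetin libraries) is left out of its panel. Orange points appear only in the macrophage-like panel.

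Of the 6 basement membrane genes tested, which macrophages are not known for making, 3 were called higher in macrophage-like cells, each against a level near 1 CPM in vehicle libraries, and Sparc and Col14a1 were called higher as well. The filter on low counts asked for 2.25 CPM in 3 libraries, which 9 of the 15 tested genes reached in the ginkgetin group only, Hspg2, Nid1, Col4a2 and Col14a1 among them. These had to differ to be tested, so their calls are descriptive, and Sparc is the 1 called gene that reached it in both groups. Sparc was not called without the highest doublet scores or with a marker gate in each cell. It was called in 1 of the 6 fits with a replicate left out. Of 15 genes tested, 5 were called higher (Hspg2, Nid1, Col4a2, Sparc and Col14a1) and none lower, against 10.7% of all 10441 genes called in both directions and 5.74% called higher. Hspg2 was at 1.42, 1.49 and 1.21 CPM in vehicle and at 11.1, 69.1 and 19.8 CPM in ginkgetin libraries (log2 fold change 4.16 with an SE of 0.67, and an adjusted p of 0.0159 from edgeR). Nid1 was at 1.27, 0.894 and 1.47 CPM against 8.35, 10.8 and 6.89 CPM (log2 fold change 2.29, SE 0.42, adjusted p 0.0197). Col4a2 was at 0.974, 0.894 and 0.895 CPM against 5.57, 24.4 and 5.97 CPM (3.22 on the log2 scale, SE 0.66, adjusted p 0.0259). Ginkgetin replicate 2 was the highest library for each of these. Sparc was at 5.09, 8.34 and 7.11 CPM against 33.4, 100 and 26.7 CPM (2.53 on the log2 scale, SE 0.56, adjusted p 0.0304), and Col14a1, a fibril-associated collagen, at 1.27, 1.19 and 4.06 CPM against 11.1, 12.2 and 14.2 CPM (2.04 on the log2 scale, SE 0.52, adjusted p 0.0464). In all, 10 of the 15 were higher without overlap, as were 33.2% of all genes tested.

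Endothelial markers were also higher in the ginkgetin libraries of these cells. The 12 endothelial markers summed to 258 to 306 CPM in vehicle and to 1041 to 2090 CPM in ginkgetin macrophage-like sums, with 11 of the 12 higher without overlap. Markers of some other cells were also higher there. The 14 stellate markers summed to 25.1 to 51.5 CPM in vehicle and to 66.8 to 109 CPM in ginkgetin libraries (5 higher without overlap), the 8 T cell markers to 5.27 to 11.5 CPM against 38.1 to 62.4 CPM (5 higher), and the 6 plasma cell markers to 154 to 267 CPM against 367 to 862 CPM (3 higher, 1 lower). Hepatocyte markers overlapped, at 102 to 284 CPM against 50.1 to 519 CPM. In T cell-like cells the endothelial markers summed to 74.4 to 101 CPM against 234 to 976 CPM, with 12 of 12 higher. Hspg2 was at 1.24, 2.72 and 3.15 CPM against 6.75, 27.6 and 12.2 CPM in T cell-like and at 1.82, 1.39 and 5.75 CPM against 2.90, 27.8 and 14.4 CPM in B cell-like cells. T cell-like Sparc was at 6.18, 10.3 and 5.77 CPM against 9.82, 48.9 and 14.5 CPM. Ginkgetin replicate 2 was the highest library in each of these. In the ginkgetin group Hspg2 and Sparc averaged 33.3 and 53.5 CPM in macrophage-like and 15.5 and 24.4 CPM in T cell-like cells. Nid1 and Col14a1 were lower in T cell-like than in macrophage-like cells of the ginkgetin group, at means of 2.28 and 1.50 CPM against 8.70 and 12.5 CPM. In B cell-like cells their means over all 6 libraries were 16.2 and 2.80 CPM.

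The macrophage-like sums were shallow in the ginkgetin group and differed in makeup. A floor of 3 counts was worth 8.35 CPM in ginkgetin replicate 1, 4.07 in replicate 2 and 1.38 in replicate 3, against 0.45 CPM or less in every vehicle library. Clusters with Trem2, Gpnmb or Cd5l among their leading genes were mostly from vehicle libraries, and those with Marco, Cd163 and Timd4 mostly from ginkgetin libraries. No gene was called without vehicle replicate 1, without vehicle replicate 2 or without ginkgetin replicate 2, where 0.0% of all genes were called. Of the 48 genes 1 was called without ginkgetin replicate 1 (5.64% of all genes), and none with the filter read as UMIs per cell (0.0977%). With each replicate left out, Hspg2 ran from 2.98 to 4.52 on the log2 scale, Col4a2 from 2.09 to 3.69 and Nid1 from 2.07 to 2.57. Sparc ran from 1.61 to 2.91 and Col14a1 from 1.82 to 2.81. The part of stray transcripts, depth and makeup in these differences was not tested.

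The genes that macrophages are known to secrete, Fn1 and Thbs1, lay the other way in these sums. Fn1 was at 17.6, 15.2 and 49.0 CPM in vehicle and at 0, 10.8 and 9.19 CPM in ginkgetin macrophage-like sums (log2 fold change -2.29 with an SE of 0.67, and an adjusted p of 0.0658 from edgeR, with the replicate block 0.00191). Thbs1 was at 3.90, 4.92 and 14.3 CPM against 2.78, 1.36 and 3.22 CPM (log2 fold change -2.07 with an SE of 0.68, and an adjusted p of 0.0852 from edgeR, with the block 0.00521). Neither overlapped between groups, and both passed the filter on low counts through the vehicle group only. No overlap was the case for 7.79% of all genes lower in ginkgetin. The direction depended on which cells were summed. With a marker gate in each cell and without the cell filter, Fn1 was at 0.27 and 0.40 and Thbs1 at 0.06 and 0.68 on the log2 scale, and with the filter read as UMIs Fn1 was at 0.88. With the block 8 genes were called, 6 higher (the 5 above and Bgn) and these 2 lower, against 16.1% of all genes (7.78% higher and 8.3% lower). Bgn was at 2.47, 7.89 and 6.90 CPM in vehicle and at 27.8, 50.2 and 19.3 CPM in ginkgetin libraries, without overlap (2.04 on the log2 scale, SE 0.56, edgeR adjusted p 0.0552). Ecm1 overlapped, at 24.4, 26.4 and 43.6 CPM against 22.3, 52.9 and 44.6 CPM.

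**Figure D5:**
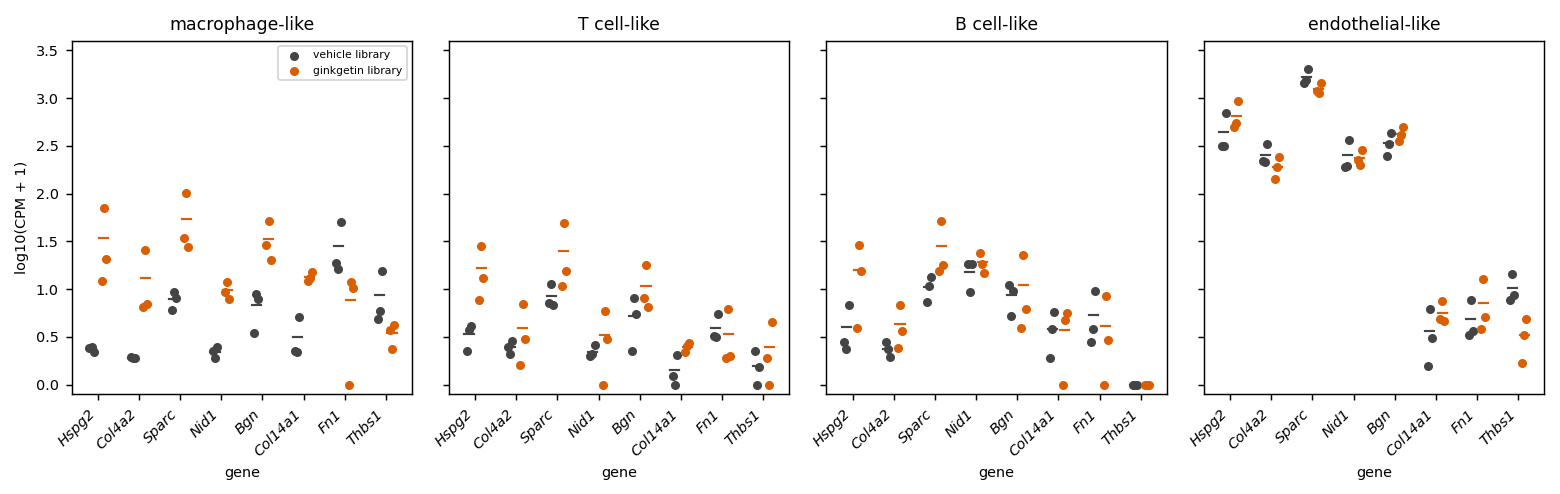
Level, as log10(CPM + 1), of 8 genes in macrophage-like, T cell-like, B cell-like and endothelial-like cells, with 1 point per library and a short bar for the logarithm of each group's mean. Hspg2 and Sparc had a higher mean in ginkgetin libraries in macrophage-like, T cell-like and B cell-like cells, with ginkgetin replicate 2 the highest library in each (27.6 CPM of Hspg2 in T cell-like cells).

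Monocyte-like cells, added after the data were seen, carried most Fn1, Vcan and Thbs1 transcripts. No gene was called among 8 tested by edgeR (2 at an unadjusted p below 0.05, and 2 called by DESeq2), where 0.0% of all genes were called, 14.5% had an unadjusted p below 0.05 and DESeq2 called 1.96%. Vcan, a large aggregating proteoglycan, was at 54.4, 38.5 and 82.8 CPM in vehicle and at 4.76, 12.7 and 23.4 CPM in ginkgetin libraries, without overlap, as were 9.19% of all genes in that direction (log2 fold change -2.16 with an SE of 0.41, and an adjusted p of 0.14 from edgeR, with the replicate block 0.0101). Hspg2, the other gene called with the block there (2.98% of all genes, 1.61% higher and 1.37% lower), was at 0.539, 0.356 and 1.19 CPM against 7.93, 20.5 and 13.8 CPM, without overlap, as were 9.03% of all genes in that direction. The 12 endothelial markers summed to 296 to 356 CPM in vehicle and to 388 to 1111 CPM in ginkgetin monocyte-like sums, with 11 higher and 1 lower without overlap, and their part in the Hspg2 values was not tested. The filter on low counts asked for 5.05 CPM in 3 libraries there, which Hspg2 reached in the ginkgetin group only and Vcan in the vehicle group only, so both had to differ and their calls are descriptive. Fn1 overlapped, at 314, 458 and 729 CPM against 333, 718 and 1591 CPM, and so did Thbs1, at 36.7, 116 and 144 CPM against 34.9, 33.2 and 141 CPM. Sparc overlapped as well, at 4.49, 10.7 and 6.34 CPM against 9.51, 47.9 and 7.78 CPM, as did Bgn, at 1.44, 6.77 and 4.75 CPM against 6.34, 14.7 and 4.32 CPM, and Ecm1, at 23.7, 61.3 and 35.4 CPM against 14.3, 33.2 and 40.6 CPM. Sparc, Bgn and Ecm1 missed the threshold there in both fits. In hepatocyte-like cells Vtn overlapped, at 706, 257 and 370 CPM in vehicle and at 681 and 303 CPM in the 2 ginkgetin libraries with enough cells.

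Whether a gene's difference itself differed between classes was tested by an interaction, with each library as a block. Against endothelial-like cells, 2 of 23 genes were called in stellate-like cells, against 0.905% of all genes (0.658% in that direction), and both moved toward a higher relative level with ginkgetin: Lamc1 (difference of log2 fold changes 1.80, adjusted p 0.0401) and Sparcl1 (3.32, adjusted p 0.0109). In cholangiocyte-like cells 1 of 12 was called, Lamc1 (1.32, adjusted p 0.0468), against 1.41% of all genes and 1.09% in that direction. Without vehicle replicate 3 none was called in either of these comparisons, the stellate-like one had 7 calls without vehicle replicate 2 (1 stellate-like vehicle library left) and 1 without ginkgetin replicate 1 or 3, and the cholangiocyte-like one had none without vehicle replicate 1 or any single ginkgetin replicate. Both comparisons use the same endothelial-like libraries. In macrophage-like cells 7 of 12 were called, against 8.86% of all genes (5.38% higher and 3.48% lower): Hspg2, Col4a1, Col4a2, Sparc, Nid1 and Bgn were relatively higher and Fn1 relatively lower, with 4 calls left without ginkgetin replicate 2. Hspg2, Nid1, Col4a1 and Col4a2 passed the filter in macrophage-like cells through the ginkgetin group only, and Fn1 through the vehicle group only. The calls of these genes are therefore descriptive. Col1a1, Col1a2 and Col3a1 did not pass the filter on low counts in this fit. Without that filter, where the p-values rest on a spread pooled over genes, the stellate-like difference relative to endothelial-like cells was -5.80 for Col1a1 (SE 0.98, edgeR adjusted p 2.28e-06), -2.31 for Col1a2 (adjusted p 0.113) and -1.69 for Col3a1 (adjusted p 0.444). Without vehicle replicate 2, where these genes passed the filter and a lone stellate-like vehicle library is assumed to vary like the other sums, it was -5.66 (adjusted p 0.000155), -2.61 (adjusted p 0.03) and -1.98 (adjusted p 0.0996), and without vehicle replicate 3 the adjusted p of Col1a1 was 0.491. The endothelial-like side of Col1a1 rests on 0 to 27 UMIs per library.

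Genes that process collagen, listed beside the 48, lay below 0 in stellate-like cells for 18 of 19 tested, with a median log2 fold change of -0.56 against 0.01 for all genes. None was called. Serpinh1, the collagen chaperone HSP47, was at 1240 and 1279 CPM in vehicle and at 641, 506 and 604 CPM in ginkgetin libraries. Of 15 matrix receptors tested there, none was called, against 1 higher and 1 lower with the replicate block, which called none of the processing genes and 3.39% of all genes. Cd44, the hyaluronan receptor, was at 47.9 and 97.3 CPM against 0, 17.4 and 22.2 CPM, and Itgb3 at 24.0 and 32.4 CPM against 56.6, 69.8 and 108 CPM.

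In endothelial-like cells 17 processing genes and 15 receptors were tested and none was called, where 0.397% of all genes were. Serpinh1 was at 241, 183 and 267 CPM against 129, 115 and 143 CPM. The integrin chain Itgb3, a receptor, was at 43.1, 58.8 and 68.2 CPM against 23.4, 24.3 and 22.0 CPM. Neither overlapped, and 5.91% of all genes were lower in this way. With the replicate block 2 processing genes and 2 receptors were called lower there, as were 2.85% of all genes. In macrophage-like cells 2 of 14 processing genes fell: Tmem38b, an endoplasmic reticulum ion channel that collagen-making cells need, from 41.2, 42.6 and 43.5 CPM to 13.9, 14.9 and 8.73 CPM, and Ppib, a collagen-folding isomerase, from 342, 269 and 341 CPM to 156, 133 and 114 CPM. Of 14 receptors, Sdc3 and Sdc2 rose and Sdc1 fell there. Leaving out ginkgetin replicate 2, or vehicle replicate 1 or 2, ended these calls with those of every other gene. With the block 3 processing genes and 6 receptors were called, where 16.1% of all genes were, against 10.7% in the fit on group alone. Sdc3, a syndecan, was at 565, 576 and 756 CPM in vehicle and at 1846, 1993 and 3664 CPM in ginkgetin libraries. It was among the leading genes of a macrophage-like cluster with 527 cells of ginkgetin replicate 3 and 11 of vehicle replicate 3. The part of makeup in its rise was not tested. In cholangiocyte-like cells 13 processing genes and 15 receptors were tested and none was called, against 2 receptors with the block, where 2.45% of all genes were called.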

How the data were processed

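Raw UMI counts per gene and cell, as the authors deposited them, were used for 6 libraries of liver non-parenchymal cells prepared on the 10x Genomics system. The submitters' processing notes name the build GRCm38 (mm10), and the aligner and annotation are not given in the sources used here. The labels' extraction text names a bulk RNA kit, which does not match a droplet library. The study states its cell filter as 250 to 5000 UMIs. It was applied here to detected genes instead, with under 5% mitochondrial UMIs, because UMIs per cell would leave 16821 cells. The main fit thus departs from the stated unit. Cells were clustered in scanpy 1.11.5 (2000 variable genes without the 48 genes, 30 components, resolution 1.0) and named from markers, 3 or more detected, that were chosen outside the 48 genes. A cluster kept no name where markers of another class led it. Doublets were kept in the main fit, and an alternative dropped the 5% of cells that scored highest as doublets.

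Counts were summed per library and class (10 or more cells) and tested with edgeR 4.0.16 in R 4.3.3 by its quasi-likelihood test on group, with TMM normalization, its default filter on low counts and Benjamini-Hochberg adjustment over all genes tested. A gene was called at an adjusted p below 0.05 and a fold above 2. DESeq2 1.42.0 was an alternative. CPM is the UMI count scaled to 1000000 UMIs of the class sum, without TMM, and holds no length correction, so levels are not compared between genes. An exact permutation test of 3 against 3 libraries cannot go below p = 0.1. Tested on simulated data with 200 genes changed 4-fold, the fit recovered 54.5% of them in stellate-like sums (4658 genes), 98.5% in endothelial-like (10150), 98.0% in cholangiocyte-like (7602) and 65.0% in macrophage-like (10170). False calls numbered 5, 21, 10 and 6 in that order. Deviations from the group means correlated between same-numbered libraries at 0.409 to 0.912 in the 4 classes in which this was computed (endothelial-, macrophage-, monocyte- and cholangiocyte-like). Replicates 1 and 2 correlated across numbers as well (0.372 to 0.66), so their numbers are not shown to pair libraries. Both were opposite to replicate 3, which deviations from a mean of 3 libraries partly force. The replicate block thus largely stands for the barcode set.

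The 48 genes, the role groups and the other lists were chosen with earlier results of these data known. Values per library are given for 14 fixed genes in the class where each was highest, and for the 6 tested genes with the lowest p in each class. Other genes shown after their values were seen are those that the counts or the block singled out. Promoters came from RefSeq on GRCm38.p6. Intervals and floors cover counting error only.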

Additional observations from a re-analysis of the deposited data

Results flagged for a closer look

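The genes below had a change with ginkgetin that differed between 2 classes of cells in a direct test of that difference. In stellate-like relative to endothelial-like cells, Lamc1 differed by 1.80 and Sparcl1 by 3.32 on the log2 scale. For Lamc1, each class's own change missed the threshold. Sparcl1 was at 0 to 31.6 CPM in the endothelial-like libraries, and its stellate-like change was -0.08 on the log2 scale, and ran from -0.54 to 0.50 with each replicate left out.

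In cholangiocyte-like relative to endothelial-like cells, Lamc1 differed by 1.32. In macrophage-like relative to endothelial-like cells, Hspg2 differed by 3.50, Col4a2 by 3.48, Sparc by 2.85, Nid1 by 2.34, Col4a1 by 2.0, Bgn by 1.75 and Fn1 by -2.98. Hspg2, Nid1, Col4a1 and Col4a2 passed the filter on low counts in macrophage-like cells through the ginkgetin group only, and Fn1 through the vehicle group only. The macrophage-like change of Fn1 turned above 0 under other choices of cells. Endothelial markers were higher in the ginkgetin libraries of macrophage-like, monocyte-like, T cell-like and B cell-like cells, and their part in these differences was not tested.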

How the results depend on the processing

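Shares in brackets are of all genes called under the same setting. In stellate-like cells 0 genes were called in the fit on group alone (0.0194%), against 4 by DESeq2 (0.504%), 9 without the filter on low counts (0.724%), 9 with the replicate block (3.39%) and 11 with a block for the barcode set (3.06%). With any ginkgetin replicate left out, no gene at all was called there. Replicates 1 and 2 only, and the fits without vehicle replicate 2 or 3, held 1 stellate-like vehicle library, so their calls are not counted here. In endothelial-like cells 0 (0.397%) became 1 by DESeq2 (2.91%), 3 with the replicate block (4.11%), 4 with the set block (4.59%), 3 in replicates 1 and 2 only (3.47%) and 1 without the cell filter (0.948%). In cholangiocyte-like cells 0 (0.176%) became 1 with either block (2.45% and 2.52%). In macrophage-like cells 5 (10.7%) became 7 by DESeq2 (13.7%), 4 without the filter on low counts (4.22%), 6 without the cell filter (12.5%), 4 without the highest doublet scores (10.7%), 8 with the replicate block (16.1%), with the set block (16.6%) or in replicates 1 and 2 only (12.4%), 3 with a marker gate in each cell (5.14%), 0 with the filter read as UMIs (0.0977%), and 0 to 4 with each replicate left out (0.0% to 12.3%). In monocyte-like cells 0 (0.0%) became 2 by DESeq2 (1.96%), with the replicate block (2.98%) or with the set block (2.7%), and 1 without the cell filter (0.62%). For the differences between classes, calls without the filter on low counts were 7 (stellate-like, 0.893%), 14 (macrophage-like, 8.76%) and 2 (cholangiocyte-like, 1.92%), and with each replicate left out 0 to 7 (at most 2.82%), 4 to 8 (at most 7.83%) and 0 to 1 (at most 2.46%). Dcn in stellate-like cells, at a log2 fold change of -0.06, ran from -0.37 to 0.23 with each replicate left out, and turned to 0.23 without vehicle replicate 2, 0.044 without ginkgetin replicate 2, 0.00042 without the cell filter and 0.058 with all mesenchymal cells summed (an alternative added after the data were seen). Fn1 in stellate-like cells, at -0.08, ran from -0.33 to 0.091 with each replicate left out and was at 0.34 with all mesenchymal cells summed, where Eln was at 0.55 and Mgp at -0.10. No gene at all was called with all mesenchymal cells summed (3 against 3 libraries). With stellate-like sums of 5 or more cells (3 against 3 libraries), 1 of 3627 genes was called, and none of the 48. Mgp was at -1.35 without the cell filter. In macrophage-like cells Fn1 turned to 0.27 with the marker gate, 0.88 with the UMI reading and 0.40 without the cell filter, and Thbs1 to 0.061 with the marker gate and 0.68 without the cell filter. Ecm1 there, at -0.09, ran from -0.40 to 0.18 with each replicate left out, was at 0.061 without ginkgetin replicate 1, at 0.26 in replicates 1 and 2 only and at 0.66 with the UMI reading. Of the tested genes, 18 of 40 changed sign under at least 1 alternative in stellate-like, 5 of 20 in endothelial-like, 5 of 15 in cholangiocyte-like, 3 of 15 in macrophage-like and 1 of 8 in monocyte-like cells, and none of these was called in the fit on group alone. The cause of these shifts was not tested. The replicate block changed no other call among the 48 genes. Fibroblast-like cells had too few libraries for a test, and stellate-like and cholangiocyte-like cells under the UMI reading, as well as stellate-like cells without the highest doublet scores, gave no value. Stellate-like sums held 53015 to 431434 UMIs, so that 3 counts are worth 6.95 to 56.6 CPM.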

Other observations

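An unnamed cluster led by Edn1 and Vwf, genes of large-vessel endothelium, held 127 and 43 cells of vehicle replicates 1 and 2 and 56 and 333 cells of ginkgetin replicates 1 and 2. Mgp, which was called higher in stellate-like cells with the replicate block, was at 1296 and 632 CPM in the vehicle and at 25.9 and 27.8 CPM in the ginkgetin libraries of this cluster. Fbln2, a basement membrane and elastic fibre linker, was at 473 and 407 CPM against 290 and 283 CPM there. Both genes were chosen after their values were seen, and no test was made.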
